A study of Mus musculus with 6 samples.

Results

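The genes described here encode the proteins that license replication origins and copy DNA at the fork. They were listed by symbol, sorted into 12 roles by the complex each protein belongs to, and looked up by Ensembl ID in the deposited count table. All 48 listed genes were found among the 32493 genes of the table, and all 48 were among the 16710 genes that passed the filter on low counts. RNA was sequenced from neural stem cells (NSCs) that were dissected from E14.5 mouse brains and expanded in culture. The cko NSCs came from embryos with both miR-151 alleles floxed (fl/fl) and with Emx1-IRES-Cre, and the ctrl NSCs from fl/fl embryos that lacked Cre. The sample labels call the ctrl genotype wt. Emx1 drives Cre in the dorsal part of the forebrain. The study gives the cortex as the source of the NSCs in its list of materials and the lateral ventricles in its methods. Of the 6 deposited columns, 3 per genotype, the column of ctrl replicate 2 equalled the rounded-up mean of ctrl 1 and ctrl 3 in all 32493 genes. It holds no counts of its own, and the comparison is between cko 1, 2 and 3 and ctrl 1 and 3. Nothing in the labels says that the libraries of a genotype came from separate embryos or cultures, so p-values measure the spread between these samples, which may be technical.

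Before a cell enters S phase, the origin recognition complex (ORC) with CDC6 and CDT1 loads the ring-shaped MCM helicase onto origins, and geminin keeps CDT1 from doing so again. The CDC7 kinase then helps CDC45 and the GINS complex join the helicase, primase starts each strand, the RFC complex loads the PCNA clamp, and the delta and epsilon polymerases extend the DNA behind the fork. NSCs of the embryonic cortex divide repeatedly, and many of these genes are transcribed in dividing cells around the entry into S phase.

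Total counts were 22773559 and 18950862 in ctrl 1 and ctrl 3, and 17883796, 23335736 and 21736269 in cko 1, 2 and 3. Levels are given as normalized CPM, which are counts scaled to the library total of the tested genes after TMM. A level of 3 counts lay between 0.129 and 0.168 CPM, which takes in the error of counting alone. The NSC label was checked against 8 markers, all of which were counted in every library. *Sox2* was measured at 583 and 556 normalized CPM in ctrl 1 and ctrl 3 and at 619, 626 and 607 in cko 1, 2 and 3, and *Nes* at 471, 537, 875, 1068 and 1034 in the same order. The cultures also held glial transcripts, which are described with the other lists.

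Summed over the 48 genes, the replication machinery took 1463 and 1815 normalized CPM in ctrl 1 and ctrl 3, and 2172, 2790 and 2678 in cko 1, 2 and 3. Every cko library lay above both ctrl libraries, and cko 1 lay nearest to them. In edgeR's quasi-likelihood test, 24 of the 48 genes were higher in cko NSCs at a Benjamini-Hochberg adjusted p under 0.05, where 7.86% of all tested genes were called higher. No member was called lower, against 8.57% of all tested genes. At an unadjusted p under 0.05, 36 members were higher and 0 lower in edgeR, against 15.9% and 16.7% of all tested genes. DESeq2 on the same 5 libraries called 29 higher and 0 lower at an adjusted p under 0.05, against 4.82% and 5.16% of the genes in that fit. The study set its threshold, in DESeq2, at a log2 fold change beyond 0.9 with an unadjusted p under 0.01. With this threshold in the edgeR fit, 11 members were higher, where 2.39% of all tested genes passed in that direction. The median log2 fold change was 0.72 over the members and -0.0026 over all tested genes, and 46 of the 48 members had a value above 0. In RNA from whole cultures, a larger share of cells in S phase cannot be told apart from more RNA of these genes per cell.

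**Figure D1:**
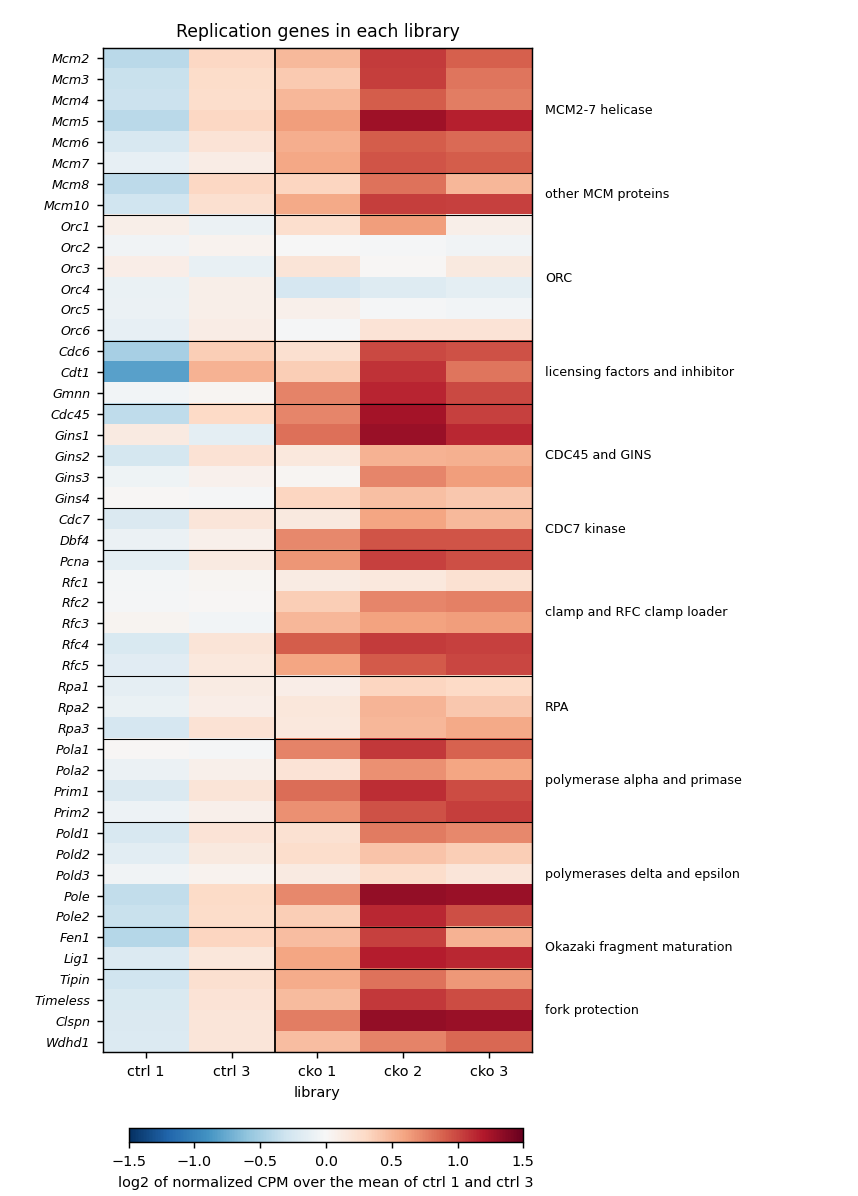
Level of each of the 48 replication genes (rows, by role) in each library (columns), as the log2 of its normalized CPM over the mean of ctrl 1 and ctrl 3, with red above and blue below that mean. Most rows are redder in cko 2 and cko 3 than in cko 1, ctrl 1 is bluer than ctrl 3 in most rows, and the ORC rows are pale apart from *Orc1* in cko 2.

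In 36 members all 3 cko libraries were above both ctrl libraries, a pattern found in 25.4% of all tested genes. These were the 24 called members and 12 members that were not called. The groups overlapped in 11 members, *Orc2*, *Orc3*, *Orc5*, *Orc6*, *Cdc6*, *Cdt1*, *Gins2*, *Gins3*, *Cdc7*, *Rpa1* and *Rpa3*, and in *Orc4* all cko libraries lay below both ctrl libraries. The libraries of a genotype also differed from one another. Of the 48 members, 42 were higher in ctrl 3 than in ctrl 1, with a median log2 ratio of 0.35, whereas 49.4% of all tested genes were higher in ctrl 3. Among the cko libraries, cko 1 was the lowest in 44 of the 48 members and in 39.3% of all tested genes. Leaving out ctrl 1 lowered the median log2 fold change of the members to 0.47. The number called higher was 37 without ctrl 3, where 10.3% of all tested genes were called higher. It was 8 without cko 2 as well as without cko 3, where these shares were 1.95% and 2.06%.

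**Figure D2:**
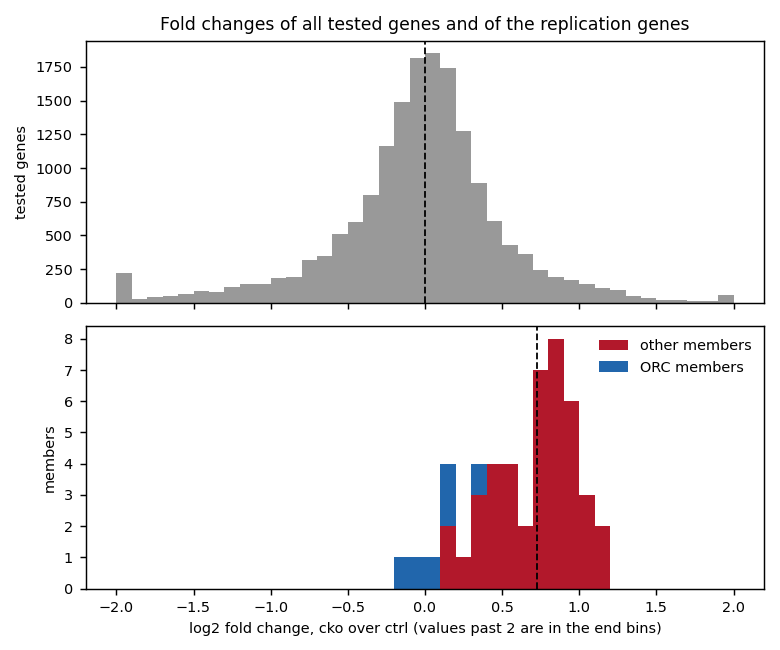
Number of genes by log2 fold change of cko over ctrl, for all 16710 tested genes (top) and for the 48 replication genes (bottom, ORC members in blue), with dashed lines at the medians. The members other than ORC all lie above 0, and the members below 0 are 2 of the 6 ORC genes.

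The MCM2-7 helicase is the ring that is loaded at origins and later unwinds the fork. The sum of its 6 subunits was 307 and 440.3 normalized CPM in ctrl 1 and ctrl 3 and 538, 752 and 697 in cko 1, 2 and 3. All 6 genes were above both ctrl libraries in every cko library, and *Mcm4*, *Mcm5*, *Mcm6* and *Mcm7* passed the test. *Mcm5* (ENSMUSG00000005410, chromosome 8, 75109569 to 75128439 in GRCm38) was measured at 38.4 and 63.2 normalized CPM in ctrl 1 and ctrl 3 and at 78.7, 122 and 114 in cko 1, 2 and 3. It had the highest log2 fold change of the ring, 1.05 (SE 0.25, adjusted p = 0.0302 in edgeR), and the adjusted p was 0.117 without cko 2 and 0.114 without cko 3. *Mcm4* had the lowest, with 45.9 and 69.3 normalized CPM in the ctrl libraries, against 81.2, 108 and 98.4 in the cko libraries. The log2 fold change was 0.74 (SE 0.19, adjusted p = 0.0379 in edgeR), and it passed in only 1 of the 5 fits that left out a library, with 0.46 without ctrl 1. The subunits thus lay within a narrow range of log2 fold changes, from 0.74 to 1.05. *Mcm2* and *Mcm3* had values of 0.83 and 0.77 inside that range, with adjusted p of 0.0511 and 0.0569 in edgeR. Without ctrl 1 these values were 0.50 and 0.49. Each of these 2 genes was called higher in 6 of the 12 alternative settings, DESeq2 on the 5 libraries among them. The fits on all 6 columns, which take in the averaged ctrl 2 column, are also among these settings. *Mcm7*, singled out after its values were seen, with 77.8 and 91.2 normalized CPM in the ctrl libraries, against 126, 162 and 159 in the cko libraries, varied least of the 6 between the ctrl libraries and was called under all 12 alternative settings. Its exons share 12.6% of their bases with other genes, *Mir25* and *Mir93* on the same strand and *Ap4m1* and *Cops6* on the opposite strand. The strand used in counting is not stated.

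Promoter windows from RefSeq (GRCm38.p6), 250 bases before to 50 bases after each start, matched 39 of the 48 members. *Mcm4*, *Gmnn*, *Gins1*, *Gins2*, *Gins4*, *Rfc2*, *Prim2*, *Pole* and *Tipin* had no entry. They were searched on both strands for the letters TTTCCCGC, TTTGGCGC, TTTCGCGC and TTTGCCGC, which resemble the sites of E2F factors and can overlap one another on opposite strands, for CCAAT, and for the CHR-type letters TTTGAA and TTCGAA. An E2F-type match was present for 17 of the 39 members, against 2.60% of the 27025 symbols with a window. CCAAT was present for 23 of 39 members and 41.1% of symbols, and a CHR-type match for 9 of 39 and 21.7%. Among the MCM2-7 genes, 4 of the 5 with a window held an E2F-type match and all 5 held CCAAT. The windows of these 4 genes are shown because every cko library was above both ctrl libraries in all helicase genes. Capitals mark the E2F-type letters, and the sequences run 5′ to 3′ on the strand of the gene. They lie at chr8:75109259-75109558 on the plus strand for *Mcm5*, chr1:128359656-128359955 on the minus strand for *Mcm6*, chr1:20820263-20820562 on the minus strand for *Mcm3* and chr5:138171834-138172133 on the minus strand for the *Mcm7* start that held a match.
Mcm5: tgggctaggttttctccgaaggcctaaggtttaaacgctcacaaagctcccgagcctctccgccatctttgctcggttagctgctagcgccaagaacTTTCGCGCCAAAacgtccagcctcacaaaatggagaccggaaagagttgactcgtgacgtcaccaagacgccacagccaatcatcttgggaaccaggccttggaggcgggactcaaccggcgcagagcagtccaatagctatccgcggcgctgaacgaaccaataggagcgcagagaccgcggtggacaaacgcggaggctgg
Mcm6: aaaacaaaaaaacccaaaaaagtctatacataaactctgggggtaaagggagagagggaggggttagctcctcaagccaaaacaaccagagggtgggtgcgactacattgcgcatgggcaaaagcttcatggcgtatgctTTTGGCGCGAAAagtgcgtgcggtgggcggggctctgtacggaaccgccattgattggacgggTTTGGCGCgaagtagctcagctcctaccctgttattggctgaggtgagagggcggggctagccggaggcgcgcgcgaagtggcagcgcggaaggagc
Mcm3: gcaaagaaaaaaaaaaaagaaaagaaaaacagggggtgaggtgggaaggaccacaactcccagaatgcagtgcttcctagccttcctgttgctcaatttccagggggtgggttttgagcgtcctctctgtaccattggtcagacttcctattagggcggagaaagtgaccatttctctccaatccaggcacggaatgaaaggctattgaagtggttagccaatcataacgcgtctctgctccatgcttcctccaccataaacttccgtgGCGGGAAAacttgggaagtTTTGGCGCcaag
Mcm7: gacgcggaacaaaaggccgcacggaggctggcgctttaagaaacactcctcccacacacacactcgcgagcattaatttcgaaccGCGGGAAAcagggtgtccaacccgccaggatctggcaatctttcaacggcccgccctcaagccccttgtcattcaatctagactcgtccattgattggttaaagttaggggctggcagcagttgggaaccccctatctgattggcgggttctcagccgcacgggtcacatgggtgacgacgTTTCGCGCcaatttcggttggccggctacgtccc

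The E2F-type letters did not separate called from other members. They were present for 7 of the 16 members called higher that had a window and for 10 of the 23 that were not called. CCAAT was present for 10 and 13 of these members. A match is a string of letters in the window, and no binding was measured.

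*Mcm8* and *Mcm10* are named after the helicase but are not part of the loaded ring. MCM10 is needed when the loaded helicase starts to unwind, and MCM8 acts in recombination repair. *Mcm10* was measured at 14.6 and 21.2 normalized CPM in ctrl 1 and ctrl 3 and at 26.4, 36.6 and 36.3 in cko 1, 2 and 3. All cko libraries were above both ctrl libraries, with a log2 fold change of 0.90 (SE 0.21, adjusted p = 0.0270 in edgeR; 0.115 without cko 2 and 0.113 without cko 3). *Mcm8* stood at 8.21 and 13.3 normalized CPM in ctrl NSCs against 13.4, 18.9 and 15.2 in cko NSCs. Its lowest cko library was 1.01 times its highest ctrl library, and its log2 fold change of 0.57 did not pass (SE 0.24, adjusted p = 0.147 in edgeR). It was 0.96 without ctrl 3 (adjusted p = 0.0137) and 0.25 without ctrl 1 (0.422).

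ORC marks the sites where the helicase is loaded. The sum of its 6 genes was 224 and 232 normalized CPM in ctrl 1 and ctrl 3 and 230.3, 229 and 232 in cko 1, 2 and 3. No ORC gene was called in either direction on the 5 libraries in edgeR or DESeq2, 0 had an unadjusted p under 0.05 in edgeR, and their median log2 fold change was 0.06, with a range from -0.20 to 0.34. *Orc1*, the subunit whose protein level varies over the cell cycle in many cells, had the highest value. It stood at 5.37 and 4.75 normalized CPM in ctrl NSCs against 6.04, 7.85 and 5.38 in cko NSCs. Its cko 3 library lay almost at the level of ctrl 1, and the log2 fold change of 0.34 was small beside the differences between libraries (SE 0.22, adjusted p = 0.323 in edgeR), and it was 0.16 without cko 2. *Orc4* (ENSMUSG00000026761, chromosome 2, 48902824 to 48950277 in GRCm38) had the lowest value, with 54.6 and 62.3 normalized CPM in the ctrl libraries, against 49.0, 51.2 and 52.6 in the cko libraries. All its cko libraries were below both ctrl libraries. The log2 fold change of -0.20 did not pass (SE 0.09, adjusted p = 0.169 in edgeR), but without ctrl 1 it was -0.30 with an adjusted p of 0.0462, and without ctrl 3 it was -0.10. *Orc2* stood at 36.5 and 39.4 normalized CPM in ctrl NSCs against 37.8, 37.6 and 36.7 in cko NSCs. These overlapped, with a log2 fold change of -0.02 (SE 0.08, adjusted p = 0.886 in edgeR). *Orc3*, *Orc5* and *Orc6* also overlapped between genotypes, with log2 fold changes of 0.12, 0.01 and 0.14. ORC was called higher in none of the 12 alternative settings. The *Orc2* exons share 29.8% of their bases with *Nif3l1* on the opposite strand, and the strand used in counting is not stated, so its counts are uncertain.

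E2F-type letters were also present in 2 of the 6 ORC promoters, those of *Orc1* and *Orc3*. The *Orc3* window, at chr4:34614893-34615192 on the minus strand, is shown because its gene overlapped between genotypes. The match is in capitals.
Orc3: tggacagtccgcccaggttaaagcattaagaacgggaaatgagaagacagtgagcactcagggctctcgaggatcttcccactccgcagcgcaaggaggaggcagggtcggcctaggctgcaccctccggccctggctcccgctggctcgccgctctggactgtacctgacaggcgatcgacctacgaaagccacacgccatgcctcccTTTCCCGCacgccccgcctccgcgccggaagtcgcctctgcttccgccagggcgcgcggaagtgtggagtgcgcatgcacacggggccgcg

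Of the licensing factors, CDC6 and CDT1 bring the helicase to ORC, and geminin (*Gmnn*) is the inhibitor of CDT1. *Gmnn* (ENSMUSG00000006715, chromosome 13, 24751845 to 24761923 in GRCm38) was measured at 13.3 and 14.0 normalized CPM in ctrl 1 and ctrl 3 and at 22.9, 30.1 and 27.0 in cko 1, 2 and 3. The ctrl libraries were nearly equal, and the lowest cko library was 1.64 times the higher of them. The log2 fold change was 0.97 (SE 0.14, adjusted p = 0.00620 in edgeR), and *Gmnn* was called under all 12 alternative settings. *Cdc6* stood at 6.99 and 12.8 normalized CPM in ctrl NSCs against 11.7, 19.6 and 19.2 in cko NSCs. Its cko 1 library lay below ctrl 3, and the log2 fold change of 0.78 did not pass (SE 0.31, adjusted p = 0.132 in edgeR). Without ctrl 3 it was 1.28 with an adjusted p of 0.0150, and without ctrl 1 it was 0.39 with 0.346. *Cdt1* differed most between the ctrl libraries of all members, with 8.39 normalized CPM in ctrl 1 and 21.1 in ctrl 3, and 19.1, 31.3 and 25.8 in cko 1, 2 and 3. The mean of the cko libraries was 3.03 times ctrl 1 but 1.20 times ctrl 3. The log2 fold change was 0.80 (SE 0.37, adjusted p = 0.185 in edgeR). *Cdt1* was singled out after its values were seen. Its window, at chr8:122567765-122568064 on the plus strand, held an E2F-type match, and CCAAT was not among its letters.
Cdt1: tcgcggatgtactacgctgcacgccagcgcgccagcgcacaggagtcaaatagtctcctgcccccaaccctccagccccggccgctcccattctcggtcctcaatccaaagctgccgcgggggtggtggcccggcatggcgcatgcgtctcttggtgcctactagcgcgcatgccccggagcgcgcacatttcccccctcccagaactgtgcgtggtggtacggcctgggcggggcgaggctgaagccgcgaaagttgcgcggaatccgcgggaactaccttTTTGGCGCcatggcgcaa

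**Figure D3:**
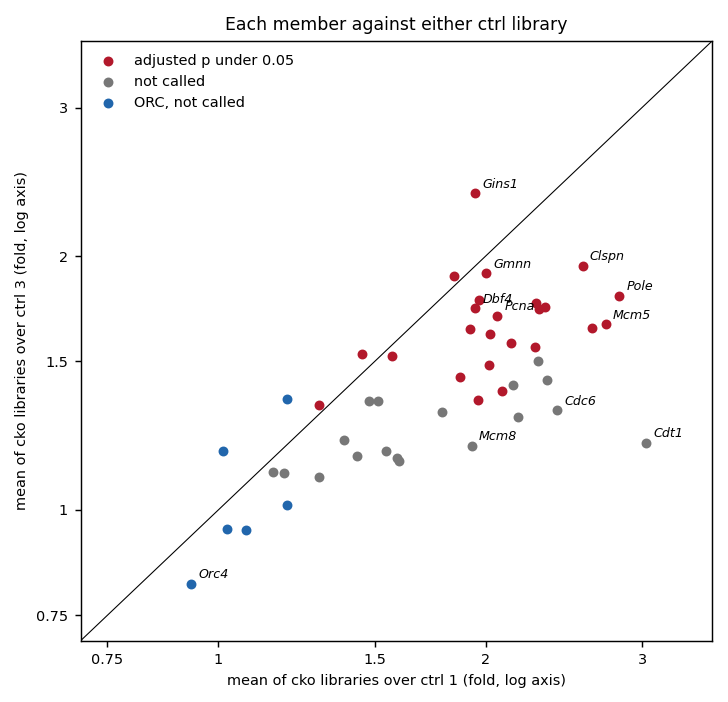
Fold of the mean of the 3 cko libraries over ctrl 1 (horizontal) and over ctrl 3 (vertical) for each member, on log axes, with a line where both are equal. Members called at an adjusted p under 0.05 are red, other members grey and ORC members blue; *Cdt1* lies furthest below the line, at 3.03 and 1.20, and *Gmnn* and *Gins1* lie close to it or above.

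The choice of ctrl library mattered for other members too. The cko mean was over 1.5 times ctrl 1 in 34 members and over 1.5 times ctrl 3 in 20. In 6 members, *Mcm8*, *Cdt1*, *Gins2*, *Cdc7*, *Rpa3* and *Fen1*, it was over 1.5 times ctrl 1 and under 1.3 times ctrl 3, and none of these 6 was called. Ctrl 3 was over 1.5 times ctrl 1 in 11 members, of which 4 were called, *Mcm4*, *Mcm5*, *Cdc45* and *Pole*. By contrast, 8 members were called under all 12 alternative settings, *Mcm7*, *Gmnn*, *Dbf4*, *Pcna*, *Rfc4*, *Pola1*, *Prim1* and *Prim2*. The share of all tested genes called under all 12 was not counted, nor were the shares past the folds above. These numbers therefore have no background to be read against.

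CDC45 and the 4 GINS subunits turn the loaded ring into the active helicase. *Cdc45*, *Gins1* and *Gins4* were called higher. *Gins1* (ENSMUSG00000027454, chromosome 2, 150905400 to 150931280 in GRCm38) was measured at 8.08 and 6.62 normalized CPM in ctrl 1 and ctrl 3 and at 13.0, 18 and 16.1 in cko 1, 2 and 3. Unlike most members it was lower in ctrl 3 than in ctrl 1, and its lowest cko library was 1.61 times its highest ctrl library. The log2 fold change was 1.10 (SE 0.19, adjusted p = 0.0103 in edgeR; 0.0578 without cko 2 and 0.0594 without cko 3). *Gins4* stood at 19.3 and 18.8 normalized CPM in ctrl NSCs against 23.8, 26.0 and 25.2 in cko NSCs. The groups did not overlap, but the difference was the smallest of the complex, with a log2 fold change of 0.40 (SE 0.10, adjusted p = 0.0403 in edgeR). *Gins4* passed in none of the fits that left out a library, nor with the replicate number as a term (adjusted p = 0.172 in edgeR). The value of *Cdc45* was 1.02 (adjusted p = 0.0252 in edgeR). *Gins2* and *Gins3* overlapped between genotypes, with 0.42 and 0.50. The *Gins2* exons share 67.3% of their bases with *Gse1* on the opposite strand. *Gse1* was lower in cko NSCs, with 39.3, 43.1 and 42.7 normalized CPM against 61.7 and 59.0 in ctrl NSCs (log2 fold change -0.53, adjusted p = 0.00700 in edgeR), so reads of this locus that could belong to either gene make the *Gins2* value uncertain.

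The CDC7 kinase and its activating subunit DBF4 phosphorylate the loaded helicase. *Dbf4* (ENSMUSG00000002297, chromosome 5, 8396973 to 8422716 in GRCm38) was measured at 32.8 and 36.7 normalized CPM in ctrl 1 and ctrl 3 and at 57.4, 66.7 and 67.1 in cko 1, 2 and 3. The libraries of each genotype were close together, with a log2 fold change of 0.88 (SE 0.11, adjusted p = 0.00305 in edgeR). *Cdc7*, the catalytic subunit, stood at 35.6 and 47.0 normalized CPM in ctrl NSCs against 45.6, 62.2 and 57.6 in cko NSCs. Its cko 1 library was below ctrl 3, and its log2 fold change of 0.42 did not pass (SE 0.16, adjusted p = 0.124 in edgeR). Without ctrl 3 it was 0.64 with an adjusted p of 0.0232, and without ctrl 1 it was 0.22 with 0.358. Whether the subunits differ from each other in their response was not tested.

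The PCNA clamp holds the polymerases on DNA, and RFC opens the clamp to load it. All 6 genes were above both ctrl libraries in every cko library, and 5 were called, with *Rfc1* as the exception. *Pcna* (ENSMUSG00000027342, chromosome 2, 132249162 to 132253314 in GRCm38), named here after its values were seen, was measured at 92.1 and 112 normalized CPM in ctrl 1 and ctrl 3 and at 162, 208 and 199.9 in cko 1, 2 and 3. Its mean was 102 ± 13.9 (SD, n = 2) in ctrl and 189.9 ± 24.6 (SD, n = 3) in cko NSCs, and the log2 fold change was 0.90 (SE 0.13, adjusted p = 0.00636 in edgeR). The processed pseudogenes *Pcna-ps1* and *Pcna-ps2* resemble *Pcna*, and how reads that fit several genes were counted is not stated. *Rfc4* stood at 12.3 and 16.5 normalized CPM in ctrl NSCs against 27.0, 29.8 and 29.5 in cko NSCs. The cko libraries were nearly equal, and the log2 fold change of 1.00 was the highest of this group (SE 0.15, adjusted p = 0.00615 in edgeR). *Rfc1*, the large subunit, stood at 84.3 and 87.6 normalized CPM in ctrl NSCs against 93.9, 96.2 and 101 in cko NSCs. The groups did not overlap, but the log2 fold change was 0.18 (SE 0.07, adjusted p = 0.147 in edgeR). *Rfc2*, *Rfc3* and *Rfc5* had log2 fold changes of 0.63, 0.58 and 0.85. The exons of *Rfc2*, *Rfc4* and *Rfc5* share between 10.7% and 15.1% of their bases with genes on the opposite strand.

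RPA coats the single-stranded DNA that the helicase exposes. None of its 3 genes was called on the 5 libraries in edgeR or DESeq2, and 1, *Rpa2*, had an unadjusted p under 0.05 in edgeR. *Rpa3* was measured at 10.96 and 15.2 normalized CPM in ctrl 1 and ctrl 3 and at 14.6, 18.4 and 19.4 in cko 1, 2 and 3. Its cko 1 library was below ctrl 3, and the log2 fold change was 0.42 (SE 0.19, adjusted p = 0.170 in edgeR). Without ctrl 3 this was 0.68 (adjusted p = 0.0325), and without ctrl 1 0.20 (0.479). *Rpa1* stood at 68.1 and 80.9 normalized CPM in ctrl NSCs against 80.1, 93.4 and 91.9 in cko NSCs. It also overlapped, through cko 1, with a log2 fold change of 0.25 (SE 0.11, adjusted p = 0.158 in edgeR), 0.38 without ctrl 3 (0.0334) and 0.12 without ctrl 1 (0.461). *Rpa2*, whose groups did not overlap, had a value of 0.37, with adjusted p = 0.0939 in edgeR, and was called in 4 of the 12 alternative settings, among them the fit without ctrl 3. The sum of the 3 genes was 103 and 124 normalized CPM in the ctrl libraries, against 124, 149 and 146 in the cko libraries.

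Polymerase alpha and primase make the short RNA-DNA primers. All 4 genes were above both ctrl libraries in every cko library, and *Pola1*, *Prim1* and *Prim2* were called and passed the threshold of the study. *Prim1*, the catalytic primase subunit (ENSMUSG00000025395, chromosome 10, 128015168 to 128030037 in GRCm38), was measured at 17.8 and 23.7 normalized CPM in ctrl 1 and ctrl 3 and at 37.1, 44.8 and 41.0 in cko 1, 2 and 3. Its lowest cko library was 1.57 times its highest ctrl library, with a log2 fold change of 0.99 (SE 0.15, adjusted p = 0.00633 in edgeR). *Pola2*, the regulatory subunit of polymerase alpha, stood at 29.4 and 33.0 normalized CPM in ctrl NSCs against 36.0, 50.3 and 47.0 in cko NSCs. It was close to the ctrl level in cko 1, and the log2 fold change of 0.52 did not pass (SE 0.15, adjusted p = 0.0565 in edgeR; 0.0226 without cko 1, 0.0365 without ctrl 3 and 0.0233 in DESeq2). *Pola1* and *Prim2* had log2 fold changes of 0.903 and 0.902, just past the 0.9 of the study's threshold. *Pcna*, at 0.898, and *Mcm10*, at 0.896, fell just short of it.

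Polymerase epsilon extends the leading strand and polymerase delta the lagging strand. *Pole*, the catalytic subunit of polymerase epsilon (ENSMUSG00000007080, chromosome 5, 110286306 to 110337474 in GRCm38), was the only one of the 5 genes to be called in edgeR, while DESeq2 on the same libraries called 3. It was measured at 22.8 and 35.9 normalized CPM in ctrl 1 and ctrl 3 and at 48.4, 73.0 and 71.9 in cko 1, 2 and 3. Every cko library was above both ctrl libraries, and the log2 fold change was 1.14 (SE 0.24, adjusted p = 0.0202 in edgeR; 0.0880 without cko 2 and 0.0878 without cko 3). *Pole2*, its second subunit, had 0.87 with an adjusted p of 0.0814 in edgeR. *Pold3*, an accessory subunit of polymerase delta, stood at 43.4 and 46.6 normalized CPM in ctrl NSCs against 49.6, 54.1 and 50.8 in cko NSCs. The groups did not overlap, but were close, with a log2 fold change of 0.20 (SE 0.08, adjusted p = 0.153 in edgeR). *Pold1*, the catalytic subunit, and *Pold2* had log2 fold changes of 0.60 and 0.36, with adjusted p of 0.0748 and 0.0690 in edgeR. Without ctrl 1 these fold changes were 0.38 and 0.20. *Pold1* was called higher in 7 of the 12 alternative settings and *Pold2* in 4.

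FEN1 trims the flaps of Okazaki fragments, and DNA ligase I (*Lig1*) seals them. *Lig1* (ENSMUSG00000056394, chromosome 7, 13277283 to 13311433 in GRCm38) was measured at 54.6 and 70.8 normalized CPM in ctrl 1 and ctrl 3 and at 94.3, 142 and 137 in cko 1, 2 and 3. All cko libraries were above both ctrl libraries, cko 1 by the least, and the log2 fold change was 0.99 (SE 0.19, adjusted p = 0.0162 in edgeR; 0.0731 without cko 2 and 0.0753 without cko 3). *Fen1* stood at 1.27 and 2.13 normalized CPM in ctrl NSCs against 2.35, 3.47 and 2.44 in cko NSCs. The groups did not overlap, and the log2 fold change of 0.71 did not pass (SE 0.34, adjusted p = 0.193 in edgeR), nor did the 1.13 without ctrl 3 or the 0.36 without ctrl 1. These levels rest on few counts, and 84.2% of the *Fen1* exon bases are shared with *Tmem258* and *Gm10143* on the opposite strand. *Tmem258* stood at 24.6 and 25.2 normalized CPM in ctrl NSCs against 33.7, 27.2 and 29.6 in cko NSCs. As the handling of reads that overlap several genes is not stated, the level of *Fen1* cannot be read from these counts.

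The fork protection genes keep the helicase and the polymerases together and pass on signals of stalled forks. All 4 were called higher. *Clspn*, which encodes the checkpoint mediator claspin (ENSMUSG00000042489, chromosome 4, 126556935 to 126593903 in GRCm38), was measured at 19.5 and 25.7 normalized CPM in ctrl 1 and ctrl 3 and at 38.5, 56.5 and 55.2 in cko 1, 2 and 3. It had the highest log2 fold change of the 48 members, 1.15 (SE 0.20, adjusted p = 0.0101 in edgeR; 0.0536 without cko 2 and 0.0557 without cko 3). Its lowest cko library was 1.497 times its highest ctrl library. *Tipin*, the partner of *Timeless*, stood at 15.7 and 22.8 normalized CPM in ctrl NSCs against 28.4, 34.0 and 30.2 in cko NSCs. The genotypes lay apart, with a log2 fold change of 0.68 (SE 0.17, adjusted p = 0.0358 in edgeR), and the call held only without ctrl 3 among the 5 fits that left out a library. Without ctrl 1 the value was 0.43. *Timeless* and *Wdhd1*, which links the helicase to polymerase alpha, had log2 fold changes of 0.87 and 0.70. The *Clspn* window, at chr4:126556730-126557029 on the plus strand, held an E2F-type match, in capitals, and CCAAT, both on the strand opposite to the gene.
Clspn: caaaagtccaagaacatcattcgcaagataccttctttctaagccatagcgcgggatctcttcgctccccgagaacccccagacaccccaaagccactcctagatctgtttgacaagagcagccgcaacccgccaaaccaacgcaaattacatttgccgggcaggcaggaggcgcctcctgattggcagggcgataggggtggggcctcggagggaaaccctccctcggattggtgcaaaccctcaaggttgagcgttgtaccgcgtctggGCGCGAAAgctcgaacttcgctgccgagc

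**Figure D4:**
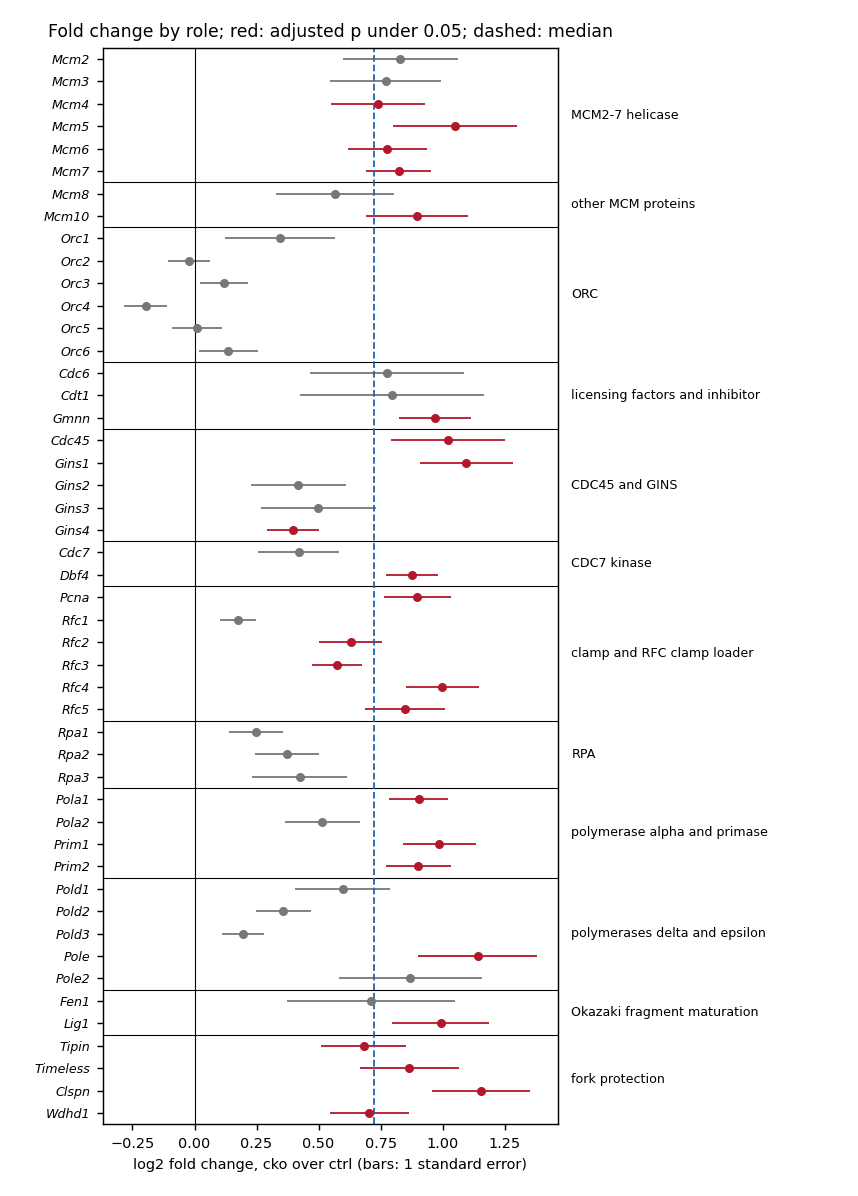
Log2 fold change of cko over ctrl for each of the 48 members by role, with bars of 1 standard error; red marks an adjusted p under 0.05 in edgeR and the dashed line the members' median of 0.72. The ORC and RPA genes lie left of the median, and *Clspn*, *Pole* and *Gins1* have the highest values.

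Levels can be compared between genes only per length, and were divided by the annotated exon length. Over the 40 members that share at most 10% of their exon bases with another gene, the ctrl mean ran from 1.70 normalized CPM per kilobase in *Pole2* to 42.5 in *Pcna*, with a median of 8.03. In cko NSCs the same genes ran from 3.09 to 79.1, with a median of 10.9. The helicase subunits, which form a ring with 1 copy of each, had ctrl levels between 8.22 per kilobase for *Mcm2* and 19.1 for *Mcm7*, and cko levels between 14.6 and 33.7. *Mcm7*, with 12.6% of its exon bases shared, is not among these 40 members. The highest of the other subunits was *Mcm4*, at 16.05 in ctrl and 26.7 in cko NSCs. In ctrl NSCs *Orc3* stood at 11.2 and *Orc6* at 12.4 per kilobase, near the 12.7 of *Mcm5*, while in cko NSCs they stood at 12.1 and 13.6 and *Mcm5* at 26.3. *Orc1* had the lowest level per kilobase of the ORC genes, 1.46 in ctrl and 1.85 in cko NSCs, but it is not among these 40 members, as its exons share 10.8% of their bases with *Gm12743* on the opposite strand. Annotated length joins the exons of all transcripts of a gene, and the transcripts used in these cells were not measured.

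**Figure D5:**
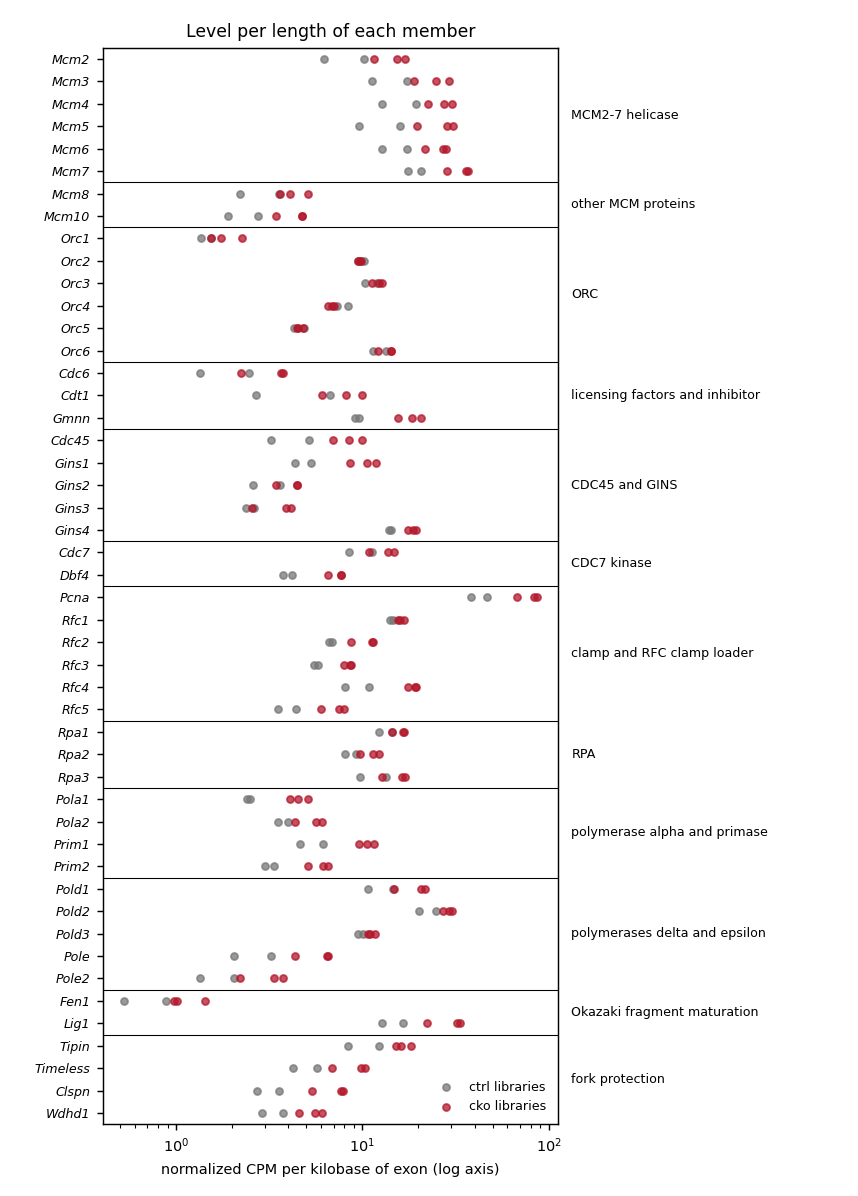
Normalized CPM per kilobase of annotated exon (log axis) for each member in the ctrl libraries (grey) and the cko libraries (red). *Pcna* lies highest, *Fen1*, whose exons overlap other genes, lies lowest, and grey and red points mix in the rows of *Orc2*, *Orc3*, *Orc5* and *Orc6*.

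Other genes of DNA replication were read from 4 lists. Of 20 other initiation and fork factors, 8 were called higher and none lower in edgeR (11 and 0 at an unadjusted p under 0.05, and 9 and 0 in DESeq2), and the median log2 fold change was 0.39. *Dscc1*, of the alternative clamp loader, was measured at 1.66 and 2.77 normalized CPM in ctrl 1 and ctrl 3 and at 5.09, 8.06 and 6.16 in cko 1, 2 and 3. No cko library reached down to the ctrl levels, with a log2 fold change of 1.55 (SE 0.31, adjusted p = 0.0179 in edgeR; 0.0819 without cko 2 and 0.0735 without cko 3). *Chtf8*, of the same loader, stood at 0.524 and 0.960 normalized CPM in ctrl NSCs against 0.336, 0.514 and 0.827 in cko NSCs, which overlapped (log2 fold change -0.37, adjusted p = 0.668 in edgeR). These levels rest on 12 and 18 counts in ctrl 1 and ctrl 3 and on 6, 12 and 18 in cko 1, 2 and 3. *Chtf18*, also of this loader and named after its values were seen, was called higher (log2 fold change 0.97, adjusted p = 0.0381 in edgeR).

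Among 6 genes of chromatin assembly behind the fork, 3 were called higher and none lower in edgeR (5 and 0 at an unadjusted p under 0.05, and 3 and 0 in DESeq2), with a median log2 fold change of 0.61. *Asf1b*, a histone chaperone of dividing cells, was measured at 5.24 and 7.47 normalized CPM in ctrl 1 and ctrl 3 and at 11.4, 18.7 and 20.4 in cko 1, 2 and 3. Every cko library was above both ctrl libraries, with a log2 fold change of 1.41 (SE 0.29, adjusted p = 0.0180 in edgeR; 0.0835 without cko 2 and 0.0806 without cko 3). *Asf1a*, its paralog, stood at 21.5 and 26.4 normalized CPM in ctrl NSCs against 22.0, 21.9 and 22.2 in cko NSCs. These overlapped, with a log2 fold change of -0.12 (SE 0.12, adjusted p = 0.546 in edgeR).

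The ATR kinase signals stalled forks, and claspin works with it. Of 8 genes of this list, 1 was called higher, *Etaa1*, and 1 lower, *Atr*, in edgeR (3 and 1 at an unadjusted p under 0.05, and 2 and 1 in DESeq2), where 7.86% and 8.57% of all tested genes were called. The median log2 fold change was 0.14. *Chek1*, the effector kinase, was measured at 11.3 and 16.9 normalized CPM in ctrl 1 and ctrl 3 and at 19.1, 25.9 and 26.1 in cko 1, 2 and 3. The groups did not overlap, and the log2 fold change of 0.76 was just short of the threshold (SE 0.21, adjusted p = 0.0507 in edgeR; 0.00596 without ctrl 3, 0.109 without ctrl 1 and 0.00901 in DESeq2). Without ctrl 1 the log2 fold change was 0.49. *Atr* stood at 61.3 and 64.9 normalized CPM in ctrl NSCs against 42.9, 44.8 and 48.4 in cko NSCs. All cko libraries were below both ctrl libraries, with a log2 fold change of -0.47 (SE 0.09, adjusted p = 0.0118 in edgeR; 0.0685 without cko 2). The kinase and the fork protection gene *Clspn* thus lay on opposite sides of 0 in the same libraries.

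Of 14 genes for DNA polymerases outside the replisome and their partners, 5 were called higher and 1 lower in edgeR (5 and 3 at an unadjusted p under 0.05, and 4 and 2 in DESeq2), with a median log2 fold change of 0.13. *Mad2l2*, a subunit of polymerase zeta, was measured at 56.2 and 53.7 normalized CPM in ctrl 1 and ctrl 3 and at 103, 136 and 141 in cko 1, 2 and 3. The groups lay far apart, with a log2 fold change of 1.21 (SE 0.14, adjusted p = 0.00281 in edgeR). *Poli*, a polymerase of lesion bypass, stood at 14.0 and 13.7 normalized CPM in ctrl NSCs against 9.23, 9.86 and 8.23 in cko NSCs. It was lower in all cko libraries, with a log2 fold change of -0.61 (SE 0.14, adjusted p = 0.0290 in edgeR). *Poli* did not pass without any 1 of the cko libraries (adjusted p from 0.0693 to 0.122 in edgeR). Nor did it pass with the replicate number as a term (adjusted p = 0.0600 in edgeR).

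Markers of glia, NSCs and neurons were read from the same libraries. The sum of 8 astrocyte markers was 4703 and 3899 normalized CPM in ctrl 1 and ctrl 3 and 2711, 1802 and 1812 in cko 1, 2 and 3, and *Slc1a3* was the most abundant. Of these markers, 5 were called lower and none higher in edgeR (7 and 0 at an unadjusted p under 0.05, and 5 and 0 in DESeq2). Among oligodendrocyte markers, *Sox10*, *Mbp*, *Mag* and *Myrf* were called lower and *Olig1* and *Olig2* higher, and *Mag* had 0 counts in cko 1 and cko 3. Of 8 NSC markers, 3 were called higher, *Nes*, *Hes5* and *Prom1*, and none lower in edgeR (4 and 0 at an unadjusted p under 0.05, and 3 and 0 in DESeq2). The NSC sum was 6345 and 5144 normalized CPM in the ctrl libraries, against 7776, 7389 and 7297 in the cko libraries, and *Vim* was the most abundant. Of 8 neuron markers, 6 were tested, with *Syt1* called higher and *Dcx* lower. Their sum was 1224 and 1102 normalized CPM in the ctrl libraries, against 1203, 1192 and 1222 in the cko libraries, with *Map2* the most abundant. The part that the mix of cell types takes in the levels of the replication genes was not tested.

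Markers of microglia and erythroid cells were near the limit of the depth. The sums of 6 microglia markers lay between 0.0460 and 0.907 normalized CPM per library, led by *P2ry12*, and those of 4 erythroid markers between 0.472 and 0.961, led by *Alas2*. *Cx3cr1*, *Tmem119*, *Cdh5*, *Hba-a1* and *Hbb-bs* had 0 counts in all 5 libraries. The vascular markers summed to between 5.55 and 7.40 normalized CPM, led by *Kdr*, and *Cldn5* of that list was not analysed here.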

How the data were processed

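Total RNA of cultured NSCs was sequenced in bulk. According to the methods of the study, the authors checked reads with FastQC, filtered them with NGSQC and aligned them to mm10 with HISAT2, while the processing notes of the submitters name GRCm39. The authors deposited raw counts per Ensembl gene. The counting tool, its annotation and its use of strand are not given in the sources used here. The labels name another RNA kit and medium than the methods do. Exon lengths, overlaps and gene positions came from GENCODE M21 (GRCm38).

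Counts of 5 libraries were tested in R 4.3.3 with edgeR 4.0.16: filter on low counts by genotype, TMM, quasi-likelihood test with genotype as the only term, and Benjamini-Hochberg adjustment over all 16710 tested genes. The ctrl replicate 2 column, a mean of the other ctrl columns, was left out. DESeq2 1.42.0, all 6 columns, other size factors and filters, each library left out, and the replicate number as a term were alternatives. The members and lists were chosen with earlier results of these data known. Values per library are given for the genes with the highest and lowest log2 fold change in each role and list of replication genes, for members below 0, for 2 NSC markers and for 2 genes that overlap members. Other members named in full are marked. Not every listed marker is reported here. The steps were tested on simulated counts: fold changes were recovered without bias, most changed genes of low level were missed, and the share of false calls was above the nominal rate in edgeR and higher in DESeq2 and with the replicate number as a term. Figures were drawn with matplotlib 3.10.9.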

Additional observations from a re-analysis of the deposited data

How the results depend on the processing

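With DESeq2 size factors, other filters, DESeq2 or all 6 columns, between 24 and 36 of the 48 members were called higher at an adjusted p under 0.05 and none lower. The share of all tested genes called higher was 17.6% in edgeR (34 members) and 8.39% in DESeq2 (36) with all 6 columns, 4.82% in DESeq2 on the 5 libraries (29), 6.02% without the filter (34), 7.61% with DESeq2 size factors (24) and 8.48% with at least 10 counts in every library (24). Over the 5 fits that left out a library, this count ran from 8 to 37, and the count called lower from 0 to 1 (*Orc4*, without ctrl 1). Past the threshold of the study, the members higher ran from 4, without ctrl 1, to 26, without ctrl 3. The share of all tested genes past this threshold was not counted in these fits. The counts of 4 and 26 therefore have no background to be read against. The median log2 fold change of the members ran from 0.47, without ctrl 1, to 0.96, without ctrl 3. A fit with 1 ctrl library takes that library to vary like the cko libraries.

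Over all genes, 1314 were called higher and 1432 lower. With all 6 columns, the averaged one included, these counts were 2865 and 2794 in edgeR and 2562 and 2519 in DESeq2, and 2237 genes were lower without the filter. Without 1 library, the higher count ran from 317, without cko 2, to 1812, without ctrl 3, and the lower count from 416, without cko 2, to 2062, without ctrl 1. Averaging adds a column without new counts and narrows the ctrl spread.

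With the replicate number as a block, 27 members were called higher. Among these libraries only cko 2 has its number, so the block takes up cko 2. The genotype effect of this fit thus rests on the other libraries. The fit that left out cko 2 and had no block called 8 members higher. The 27 members called with the block held 23 of the 24 called without it, and the call of *Gins4* was lost. Past the threshold of the study there were 7 members, in place of 11, and the share of all tested genes past it was not counted with the block. Of all tested genes, 5.49% were called higher with the block, against 7.86% without it. The genotypes share the numbers 1 and 3. Deviations from the group means correlated across genes with r = 0.179 for replicate 1 and 0.0546 for replicate 3, and with 2 ctrl libraries the pairs with the other ctrl library have the same values with the sign turned. Cko 2 and ctrl 3, which do not share a number, had r = 0.16. These values do not settle whether libraries of the same number are paired. The study names littermates, and its labels do not tie libraries to litters.

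No member that was called changed sign. *Orc2*, *Asf1a* and *Chtf8*, none of them called, had log2 fold changes above 0 without ctrl 3. Over the fits that left out a library, *Orc2* ran from -0.086 to 0.037, *Asf1a* from -0.268 to 0.041 and *Chtf8* from -0.77 to 0.11, and the cause was not tested. Over all fits, *Orc5*, also not called, ran from -0.089 to 0.105.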
